A study of Mus musculus with 12 samples.

Results

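Histone genes were examined in ESCs, pluripotent stem cells of the early mouse embryo, and in EpiLCs (epiblast-like cells), which resemble the epiblast at a later stage. They were taken from the count table by symbol (Hist1h to Hist4h, H1f, H2af and H3f genes, pseudogenes left out), which gave 80 of 22462 genes. Of these, 59 are replication-dependent core genes (H2A, H2B, H3 and H4), 10 are linker H1 genes and 11 are replacement variants. ESCs were kept in serum with LIF and the 2 inhibitors of 2i (PD0325901 and CHIR99021), and EpiLCs were collected from the same cells about 56 hours after LIF and 2i were taken away. The labels name no genotype, mutation or further agent for either group. For its ESC differentiation the study lists a mouse ESC line that carries fluorescent reporters (mCherry and GFP). For each cell type there were 3 total RNA libraries and 3 libraries of RPFs (ribosome protected fragments, the stretches of mRNA that a ribosome shields from nuclease), 12 in all. The study calls such replicates biological, the sources used here do not say how the cultures were kept apart, and p-values measure the spread between these libraries.

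Core histones form the octamer on which DNA is wound, and linker H1 binds where DNA enters and leaves it. Most of these genes are replication-dependent: they are made mainly in S phase, lie in clusters, lack introns, and give mRNAs that end in a conserved stem-loop in place of a poly(A) tail. The stem-loop is bound by SLBP, which acts in processing, export and translation of the mRNA. Replacement variants are made throughout the cell cycle, usually from polyadenylated mRNAs, and are placed at particular sites such as active genes, damaged DNA or silent chromatin. Pluripotent cells divide fast and make large amounts of replication-dependent histones.

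The stem-loop is the feature that sets the replication-dependent mRNAs apart, and its form in the genes described below is given here. It was searched for in the first 100 bases after the stop codon of annotated transcripts (Gencode M21, GRCm38) as a 16-base hairpin that begins with GG, with 6 paired bases on each side and a loop of 4 that begins with TT. The hairpin is in capitals and 5 flanking bases on each side are in lower case.
Hist3h2ba (chr11:58949344-58949369, + strand): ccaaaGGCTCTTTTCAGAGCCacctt
Hist3h2a (chr11:58955167-58955192, + strand): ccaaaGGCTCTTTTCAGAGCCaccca
Hist1h1e (chr13:23621777-23621802, - strand): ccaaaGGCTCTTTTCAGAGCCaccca
Hist1h1c (chr13:23739507-23739532, + strand): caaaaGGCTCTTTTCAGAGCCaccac
Hist1h1t (chr13:23696520-23696545, + strand): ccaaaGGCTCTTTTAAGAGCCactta
Hist4h4 (chr6:136803993-136804018, - strand): acaaaGGCCCTTTTCAGGGCCcacaa
H2afx (chr9:44335235-44335260, + strand): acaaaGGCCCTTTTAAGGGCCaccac

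The hairpin was found in 38 of the 59 core genes, in 4 of the 10 linker H1 genes and in 1 of the 11 replacement variants, H2afx. Among core genes with at least 40 annotated bases after the stop codon it was found in 38 of 44, beside 7 of 20709 other genes (0.0338%). Genes without annotated bases there could not be searched, and Hist1h2aa, Hist1h2ba, Hist2h2ab, Hist2h2bb, Hist1h2ak and Hist1h1b are among them. A single form, the one in Hist3h2ba, Hist3h2a, Hist1h1e and Hist1h1c, is shared by 24 members. H4 genes have forms of their own, of which that of Hist4h4 is in 7 members.

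Libraries held 2681439 to 14655015 counts, and the EpiLC RPF libraries were the shallowest on average. Histone genes took 1.01% to 1.09% of counts in total RNA and 1.73% to 1.95% in RPFs. The counts are of coding sequence without its first 45 nucleotides (nt), and are given as CPM, after TMM normalisation of the library sizes. Naive markers (Zfp42, Esrrb, Klf4, Tfcp2l1 and Prdm14) summed to 1321 to 1487 CPM in ESC total RNA and to 41.5 to 80.8 CPM in EpiLC total RNA. EpiLC markers (Dnmt3b, Otx2, Fgf5 and Pou3f1) went from 107 to 196 CPM to 1108 to 1191 CPM. These 2 lists thus separated the labelled cell types. Pou5f1 and Sox2, listed as markers of both, were lower in EpiLCs. In total RNA Pou5f1 had 1556 ± 74.4 CPM in ESCs and 987 ± 80.9 CPM in EpiLCs, and Sox2 had 192 ± 20.9 and 28.4 ± 3.79 CPM (SD, n = 3). The 5 primitive endoderm markers summed to 2.74 to 3.20 CPM in ESC and 2.98 to 3.53 CPM in EpiLC total RNA. The 6 markers of fibroblasts, a feeder cell type, summed to 1.94 to 2.23 CPM in ESC and 8.82 to 11.8 CPM in EpiLC total RNA, and to 6.15 to 7.16 and 31.3 to 34.6 CPM in RPFs, with Postn and Lum at 3 counts or fewer in every library. Their part in the results below was not tested. These are bulk samples, in which fewer cells of a type and less RNA per cell cannot be told apart.

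Many core histone genes are nearly identical copies, and only reads with a single genomic position were counted. The share of counted positions at which a 28-nt read is unique among annotated transcripts had a median of 99.8% over all genes tested. It was 14.9% over the 59 core genes, 99.1% over the linker H1 genes and 58.4% over the replacement variants. A count of a core gene therefore comes from a small part of the gene, and 16 of the 80 histone genes had under 5% unique positions. The filter used for testing (at least 3 CPM in at least 3 libraries) kept 63 of the 80: 47 core, 8 linker H1 and 8 replacement genes. Of the 17 left out, 14 had 3 counts or fewer in every library, 7 of them no count at all, and the other 3 (Hist2h3c2, Hist1h2bn and Hist2h2be) had at most 5, 9 and 14 counts. Their median share of unique 28-nt positions was 0%.

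Between ESCs and EpiLCs most histone genes stayed within a 2-fold change, and a small set moved further. In total RNA (the mRNA change), 5 of 63 histone genes were called higher in EpiLCs and 1 was called lower, where a call needs a limma adjusted p under 0.05 and a change of more than 1 on the log2 scale. Of all 11750 genes tested, 14.6% were called higher and 9.70% lower, beside 7.94% and 1.59% of the histone genes. The genes called higher were Hist3h2ba, Hist3h2a, Hist1h1t, Hist2h2ab and Hist1h2aa, and the gene called lower was H2afy. The median log2 fold change was 0.09 over the 47 core genes, -0.05 over the 8 linker H1 genes and -0.13 over the 8 replacement variants, and 0.03 over all genes tested.

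Without the fold limit, 20 of 63 histone genes passed the adjusted p for mRNA (31.7%) and 28 for RPF (44.4%), beside 65.4% and 59.8% of all genes. The core genes are rich in GC, with a median of 66.3% of counted bases against 52.9% over all genes tested. With a correction for GC content the median mRNA change of the core genes was -0.29 in place of 0.09, and the median RPF change was -0.41 in place of 0.04. No direction for the core genes as a class can be given from these values.

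**Figure D1:**
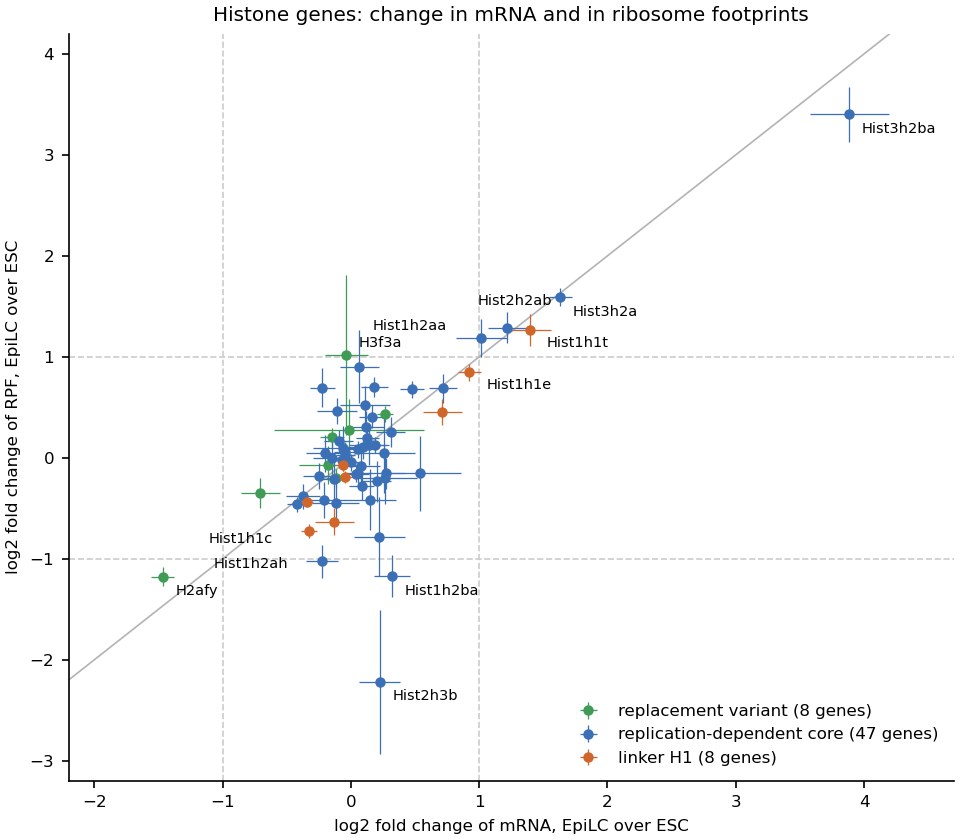
Change in mRNA (horizontal axis, log2 fold change, EpiLC over ESC) against change in RPF (vertical axis, the same scale) of the 63 histone genes tested. Points are genes coloured by class, bars are 1 SE of the limma fit, dashed lines mark the fold limit of 1 and the grey line marks equal change. Most points lie near 0, Hist3h2ba lies far to the upper right at 3.89 and 3.40, H2afy lies to the lower left, and Hist1h2ba lies below the line at 0.32 and -1.17.

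The largest rise was in Hist3h2ba (ENSMUSG00000056895.4, counted bases at chr11:58948985-58949320, mm10), a core H2B gene of the small Hist3 cluster. Its total RNA level was 1.46, 3.71 and 2.06 CPM in the 3 ESC libraries and 34.9, 34.5 and 29.2 CPM in EpiLCs. Its RPF level was 4.49, 4.89 and 5.596 CPM in ESCs and 60.8, 70.0 and 41.9 CPM in EpiLCs. Every EpiLC library was thus far above every ESC library of the same assay. EpiLCs differed from ESCs by 3.89 ± 0.31 log2 units (fitted value and SE, as for all such changes here) in mRNA (limma adjusted p 4.4e-11) and 3.40 ± 0.27 in RPF (limma adjusted p 7.58e-11). In ESC total RNA it rested on 20 to 44 counts.

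Hist3h2a (ENSMUSG00000078851.4, counted bases at chr11:58954783-58955130, mm10), the core H2A gene beside it on the same strand, also rose. In total RNA it had 86.2, 85.0 and 71.8 CPM in ESCs and 264, 222 and 260 CPM in EpiLCs. In RPFs it had 168, 154 and 144 CPM in ESCs and 463, 537 and 421 CPM in EpiLCs. The cell types did not overlap in either assay. On the log2 scale the difference was 1.63 ± 0.09 in mRNA (limma adjusted p 4.76e-14) and 1.59 ± 0.09 in RPF (limma adjusted p 1.21e-13). With 78.4% of its positions unique at 28 nt, its counts cover most of the gene. These are the only genes of the Hist3 cluster among the members.

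Hist2h2ab, an H2A gene of the cluster on chromosome 3, had 12.6, 16.1 and 11.2 CPM in ESC total RNA and 32.5, 31.7 and 27.3 CPM in EpiLC total RNA. This is a log2 difference of 1.22 ± 0.15 in mRNA (limma adjusted p 1.36e-07) and 1.29 ± 0.16 in RPF (limma adjusted p 1.21e-07), and the RPF value was 0.97, not called, with the GC correction and a replicate block together. The other 4 tested genes of that cluster were not called for mRNA, and Hist2h2bb, the core gene with the most counts, was at 1292 ± 82.7 CPM in ESC and 1286 ± 131 CPM in EpiLC total RNA (SD, n = 3).

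Among the genes known mainly from male germ cells, Hist1h1t, the testis linker H1, had 6.20, 6.15 and 6.26 CPM in ESC total RNA and 16.6, 15.1 and 17.1 CPM in EpiLC total RNA. In RPFs it had 14.7, 11.3 and 12.1 CPM in ESCs and 27.6, 36.9 and 30.8 CPM in EpiLCs. The cell types were apart in both assays, at low levels. The fitted log2 change came to 1.40 ± 0.16 in mRNA (limma adjusted p 4.84e-08) and 1.27 ± 0.16 in RPF (limma adjusted p 1.72e-07).

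Hist1h2aa and Hist1h2ba encode the testis forms of H2A and H2B. Their counted bases lie on chromosome 13 (chr13:23934507-23934851, + strand, and chr13:23933773-23934111, - strand, mm10). The genes are head to head, with 281 bases between their annotated start sites. Most of the stretch between their start sites is printed here, as the footprints of this pair of genes moved in opposite directions. Its part in these changes was not tested. The bases printed are the promoter window of Hist1h2aa from RefSeq (GRCm38.p6, 250 bases before to 50 after the start, chr13:23934187-23934486, + strand), of which 220 bases are also in the window of Hist1h2ba. Capitals mark TATAAA and CCAAT on either strand.
Hist1h2aa promoter: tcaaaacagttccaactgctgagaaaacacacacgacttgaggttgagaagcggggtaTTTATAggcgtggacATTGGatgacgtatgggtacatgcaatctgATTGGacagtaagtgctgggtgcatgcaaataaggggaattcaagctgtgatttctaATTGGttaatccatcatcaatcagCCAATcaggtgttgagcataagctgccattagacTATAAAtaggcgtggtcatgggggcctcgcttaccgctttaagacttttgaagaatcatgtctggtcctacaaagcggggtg

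Hist1h2aa had 8.02, 7.84 and 6.77 CPM in ESC total RNA and 15.0, 12.5 and 18.5 CPM in EpiLC total RNA. In RPFs it had 13.1, 21.3 and 12.6 CPM in ESCs and 26.8, 43.0 and 33.2 CPM in EpiLCs. All EpiLC libraries were above all ESC libraries in each assay. EpiLCs differed from ESCs by 1.02 ± 0.20 log2 units in mRNA (limma adjusted p 7.28e-05), just past the fold limit, and 1.19 ± 0.19 in RPF (limma adjusted p 6.59e-06). The mRNA call was lost in 13 of 22 alternative settings, in which it ranged from 0.91 to 0.99 on the log2 scale, and these included leaving out replicate 3 of ESC total RNA (0.94) or of EpiLC total RNA (0.91), while the RPF call held in all 22.

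Hist1h2ba had 16.55, 18.3 and 16.98 CPM in ESC total RNA and 25.1, 16.2 and 20.97 CPM in EpiLC total RNA, so the cell types overlapped. Its RPFs had 27.8, 25.7 and 33.0 CPM in ESCs and 12.4, 11.03 and 14.6 CPM in EpiLCs, with every EpiLC library below every ESC library. On the log2 scale the difference was 0.32 ± 0.14 in mRNA (limma adjusted p 0.0485), within the fold limit, and -1.17 ± 0.21 in RPF (limma adjusted p 2.62e-05). The mRNA value was 0.13 (limma adjusted p 0.493) without EpiLC total RNA replicate 1, and its adjusted p was between 0.00555 and 0.493 over the alternative settings. Translational efficiency (TE) is the ratio of RPF to total RNA, and its change is the interaction of assay and cell type in the same fit. The TE of Hist1h2ba fell by 1.49 ± 0.25 (limma adjusted p 0.0022) on the log2 scale. This call held in all 22 alternative settings, and 48.1% of positions of the gene were unique at 28 nt. The EpiLC RPF values rest on 29 to 78 counts.

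**Figure D2:**
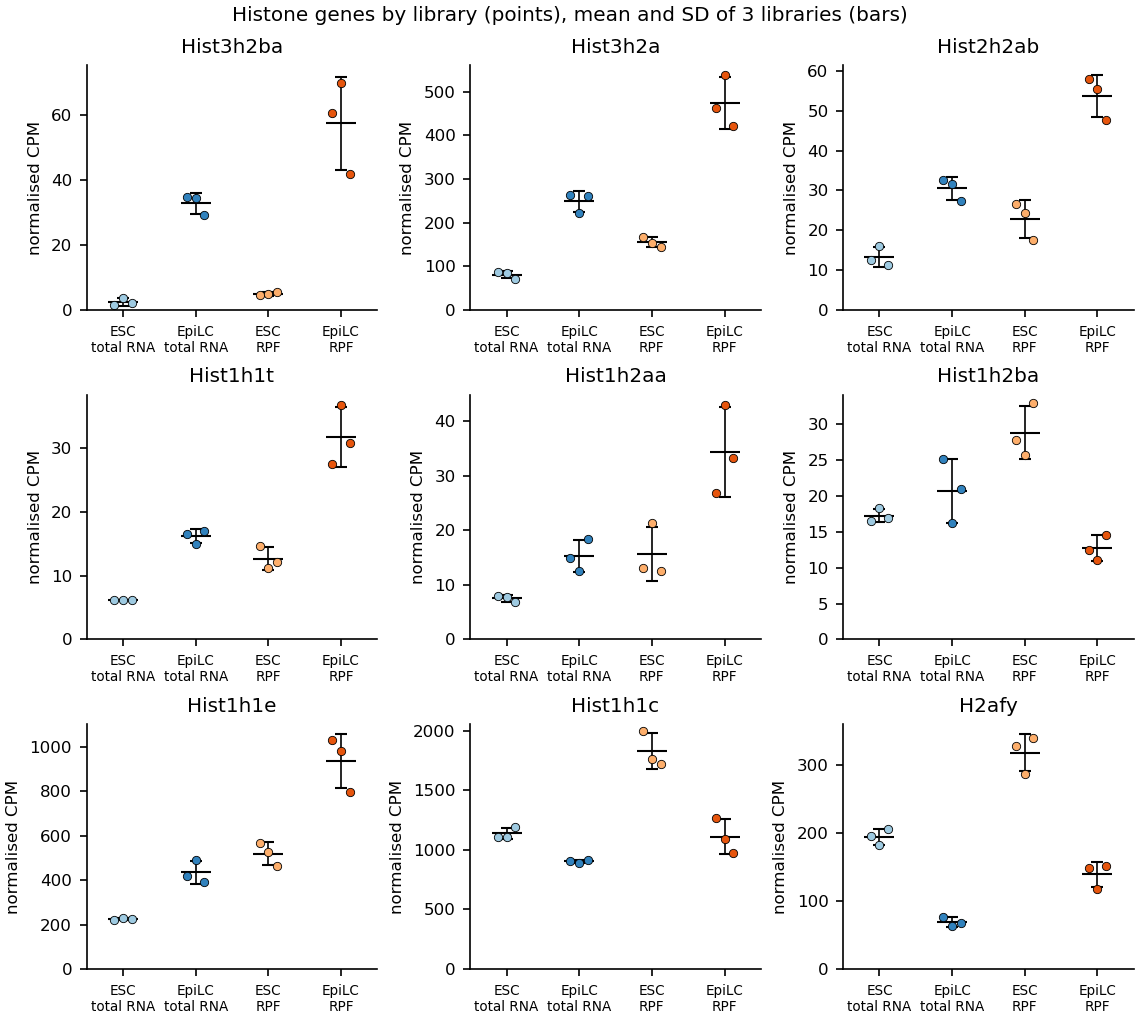
Normalised CPM (vertical axes, each from 0) of 9 histone genes in the 4 groups named on the horizontal axes. Points are libraries, and bars are the mean and SD of 3 libraries. Hist3h2ba, Hist3h2a, Hist2h2ab, Hist1h1t, Hist1h2aa and Hist1h1e are higher in EpiLCs in both assays, Hist1h1c and H2afy are lower in both, and Hist1h2ba is lower in EpiLC RPF only, at 11.03 to 14.6 against 25.7 to 33.0 CPM in ESC RPF.

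Hist1h2ba was the only histone gene called for TE, 1 of 63 beside 0.255% of all genes tested in either direction. The study describes total RNA as matched to the RPFs, and with the replicate number as a block 2 histone genes were called, beside 0.451% of all genes. The added gene was Hist2h3b, at -2.47 ± 0.65 (limma adjusted p 0.044), with at most 2 counts in EpiLC RPF libraries. The median TE change was -0.03 over the core genes, -0.13 over linker H1 and 0.29 over the replacement variants. All 8 linker H1 genes had values below 0, from -0.50 to -0.01, beside 5783 of all 11750 genes. Of these 8, Hist1h1c alone passed the adjusted p, beside 1.20% of all genes in either direction. Of the 8 replacement variants, 7 had values above 0, beside 5967 of all genes, and none passed. Genes of a class share libraries, so their signs are not independent.

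For RPF, 5 histone genes were called higher, the same 5 as for mRNA, and 4 were called lower: H2afy, Hist1h2ba, Hist1h2ah and Hist2h3b. These are 7.94% and 6.35% of the histone genes, beside 15.4% and 10.6% of all genes. The number called lower was 7 with the GC correction (beside 10.7% of all genes), and 2 without members under 5% unique positions. Hist1h2ah, an H2A gene of the large cluster, had 44.2, 52.8 and 53.1 CPM in ESC RPF and 25.3, 25.5 and 23.1 CPM in EpiLC RPF, which did not overlap. This is a log2 difference of -1.03 ± 0.16 (limma adjusted p 7.93e-06), and 1.58% of its positions were unique at 28 nt, so the value rests on a few positions. It was not called with library totals (-0.995) or without replicate 3 of ESC RPF (-0.987) or EpiLC RPF (-0.997). Hist2h3b, an H3 gene, had 17, 8 and 9 counts in ESC RPF and 0, 2 and 1 in EpiLC RPF, with 4.92% unique positions. The fitted log2 change came to -2.22 ± 0.71 (limma adjusted p 0.00957), and without EpiLC RPF replicate 1 it was -1.52 (limma adjusted p 0.12) and not called.

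Over the 43 core genes not called for mRNA, log2 fold changes ran from -0.42 to 0.72, with 5 higher and 3 lower at the adjusted p alone, beside 34.6% and 30.7% of all genes, which include called genes. In H2A, Hist1h2ak had 162 ± 15.0 CPM in ESC and 156 ± 12.6 CPM in EpiLC total RNA (SD, n = 3). In H2B, Hist1h2bb had 199 ± 10.2 and 148 ± 7.68 CPM, a fitted value of -0.42 ± 0.08 log2 units (limma adjusted p 5.17e-05) but within the fold limit. In H3, Hist1h3c had 191 ± 24.2 and 159 ± 9.45 CPM and Hist1h3a had 133 ± 11.9 and 116 ± 8.89 CPM, with limma adjusted p of 0.0741 and 0.271. In H4, Hist1h4f had 314 ± 33.0 and 349 ± 49.1 CPM (limma adjusted p 0.178). With the GC correction the mRNA values of Hist1h2ak, Hist1h3c and Hist1h3a were -0.53, -0.66 and -0.62 (limma adjusted p 2.69e-04, 6.84e-08 and 5.77e-05). Those of Hist1h2bb and Hist1h4f were -0.53 (limma adjusted p 2.85e-06) and -0.11 (limma adjusted p 0.439). All of these were within the fold limit.

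Hist4h4, an H4 gene outside the clusters on chromosome 6, had 159, 137 and 144 CPM in ESC and 229, 168 and 209 CPM in EpiLC total RNA. Its RPFs had 451, 525 and 519 CPM in ESCs and 826, 862 and 720 CPM in EpiLCs. The cell types did not overlap in either assay. EpiLCs differed from ESCs by 0.48 ± 0.09 log2 units in mRNA (limma adjusted p 9.66e-05) and 0.68 ± 0.08 in RPF (limma adjusted p 1.51e-07), within the fold limit. At 97.4% it had the highest share of unique 28-nt positions of the core genes.

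Summed over genes, the core class took 4674 ± 307 CPM in ESC and 4946 ± 214 CPM in EpiLC total RNA (SD, n = 3), a log2 difference of 0.08. This was 0.0292 when replicate 3 of ESC total RNA was left out and 0.0452 when replicate 1 of EpiLC total RNA was. In RPFs it took 8526 ± 227 and 9284 ± 493 CPM, a log2 difference of 0.12, and 0.0807 without EpiLC RPF replicate 2. Linker H1 took 5048 ± 149 and 4627 ± 84.1 CPM in total RNA and 9704 ± 111 and 8227 ± 547 CPM in RPFs, log2 differences of -0.13 and -0.24, which were -0.0302 and -0.14 without Hist1h1a. With all genes, its EpiLC libraries were below its ESC libraries in both assays. Replacement variants took 699 ± 34.5 and 554 ± 30.8 CPM in total RNA, a log2 difference of -0.34, and their RPF sums overlapped. Without H2afy, a subset chosen after its values were seen, the total RNA sums were 505 ± 27.6 and 485 ± 24.9 CPM, a log2 difference of -0.06. These sums carry no test and no correction for GC content. They hold only reads with a single position, so they do not compare levels between classes. At 28 nt, 4116 of 19725 counted core bases and 6031 of 6727 linker H1 bases were unique positions. Per 1000 unique positions (36 nt), ESC total RNA had 979 ± 64.3 CPM for the core class and 824 ± 24.3 CPM for linker H1 (SD, n = 3). In EpiLC total RNA these were 1036 ± 44.7 and 756 ± 13.7 CPM. The positions are those of all members, and of the 6123 for linker H1, 866 belong to H1foo and 1152 to H1fnt. Both genes had at most 2 counts in a library. The order of the classes is therefore not read from these values, which also change with the read length assumed.

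Of the core families, H2A had the largest difference between cell types in its summed level, without a correction for GC content. The sum was 683, 652 and 585 CPM in ESC total RNA and 858, 860 and 838 CPM in EpiLC total RNA. In RPFs it was 1402, 1370 and 1394 CPM in ESCs and 1872, 1967 and 1684 CPM in EpiLCs, so that the cell types did not overlap in either assay. The log2 difference was 0.41 in both. Without Hist3h2a, a subset chosen after its values were seen, the log2 differences of the H2A sum were 0.11 and 0.15. With the GC correction the mRNA change of single H2A genes was 1.48 for Hist3h2a, 1.01 for Hist2h2ab and 0.91 for Hist1h2aa. It was -0.53 for Hist1h2ak and -0.78 for Hist1h2ah. The sums of H2B, H3 and H4 had log2 differences of -0.02, -0.07 and 0.13 in total RNA and of -0.08, 0.04 and 0.24 in RPFs. Of these the H4 sum in RPFs alone did not overlap between cell types. Hist2h2bb alone had 1292 of the 1911 CPM of the H2B sum in ESC total RNA.

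**Figure D3:**
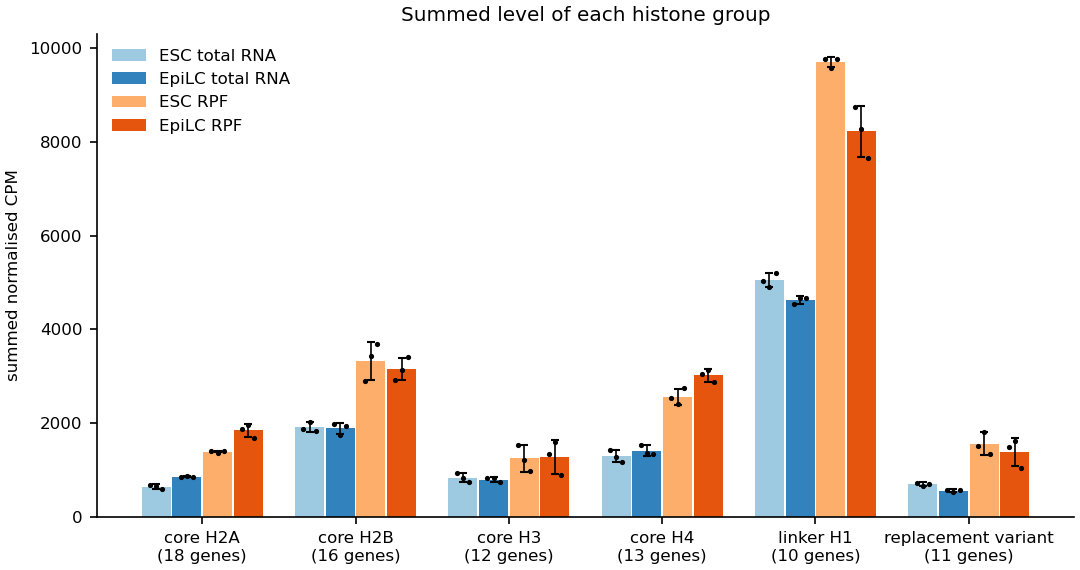
Summed normalised CPM (vertical axis, from 0, without a correction for GC content) of the genes of each histone group in the 4 groups of libraries. Bars are means, error bars are the SD of 3 libraries and dots are libraries. Core H2A is higher in EpiLCs in both assays, linker H1 is lower in both (8227 against 9704 CPM in RPFs), H4 is higher in EpiLC RPF, and H2B and H3 overlap.

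The linker H1 genes had differences of both signs. Hist1h1e had 222, 230 and 227 CPM in ESC total RNA and 418, 492 and 393 CPM in EpiLC total RNA. Its RPFs had 566, 529 and 463 CPM in ESCs and 1031, 982 and 797 CPM in EpiLCs. All EpiLC libraries were above all ESC libraries. On the log2 scale the difference was 0.92 ± 0.09 in mRNA (limma adjusted p 1.33e-09) and 0.85 ± 0.09 in RPF (limma adjusted p 6.04e-09), short of the fold limit.

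Hist1h1c had 1112, 1112 and 1188 CPM in ESC total RNA and 908, 891 and 917 CPM in EpiLC total RNA. Its RPFs had 1999, 1759 and 1724 CPM in ESCs and 1270, 1093 and 972 CPM in EpiLCs, again without overlap. This is a log2 difference of -0.33 ± 0.06 in mRNA (limma adjusted p 9.31e-05) and -0.72 ± 0.07 in RPF (limma adjusted p 2.48e-09). The difference between the assays, its TE change, was -0.40 ± 0.09 (limma adjusted p 0.0371), within the fold limit, and the adjusted p ranged from 0.00174 to 0.144 over the alternative settings. With the GC correction the RPF change was -1.01, past the fold limit.

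Hist1h1a, the linker H1 gene with the most counts, had log2 differences of -0.34 ± 0.05 in mRNA (limma adjusted p 2.03e-06) and -0.44 ± 0.05 in RPF (limma adjusted p 6.17e-08). Hist1h1b had -0.05 ± 0.06 in mRNA (limma adjusted p 0.515) and -0.19 ± 0.06 in RPF (limma adjusted p 0.00909). Hist1h1d had -0.06 ± 0.06 in mRNA (limma adjusted p 0.353) and -0.07 ± 0.06 in RPF (limma adjusted p 0.277). These are the main somatic H1 genes.

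H1f0, the replacement linker histone known from cells that have stopped dividing, had -0.13 ± 0.15 in mRNA (limma adjusted p 0.477) and -0.63 ± 0.14 in RPF (limma adjusted p 2.92e-04). H1fx, a divergent H1, had 0.71 ± 0.15 in mRNA (limma adjusted p 2.18e-04) and 0.46 ± 0.13 in RPF (limma adjusted p 0.00338), and with the GC correction these values were 0.23 (limma adjusted p 0.116) and -0.16 (limma adjusted p 0.193). The oocyte form H1foo and the spermatid form H1fnt had at most 2 counts in a library.

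As shares of the summed H1 level per unique position, Hist1h1e went from 5.15% ± 0.20 in ESC to 10.7% ± 1.26 in EpiLC total RNA and from 6.21% ± 0.58 to 12.998% ± 0.87 in RPFs (SD, n = 3). Hist1h1c went from 25.8% ± 0.37 to 22.2% ± 0.47 in total RNA and from 22.3% ± 1.496 to 15.8% ± 0.98 in RPFs. For both genes no library of one cell type reached the range of the other. Hist1h1a went from 27.6% ± 0.88 to 23.5% ± 0.54 in total RNA, without overlap, and had 28.5% ± 2.71 and 24.5% ± 1.504 in RPFs, which overlapped. The shares of Hist1h1d, 25.99% ± 0.21 and 26.8% ± 2.21 in total RNA, overlapped, and those in RPFs, 25.7% ± 0.53 and 28.5% ± 0.40, did not. A share also depends on the other H1 genes, and the RPF change of Hist1h1d itself was -0.07 ± 0.06 (limma adjusted p 0.277).

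**Figure D4:**
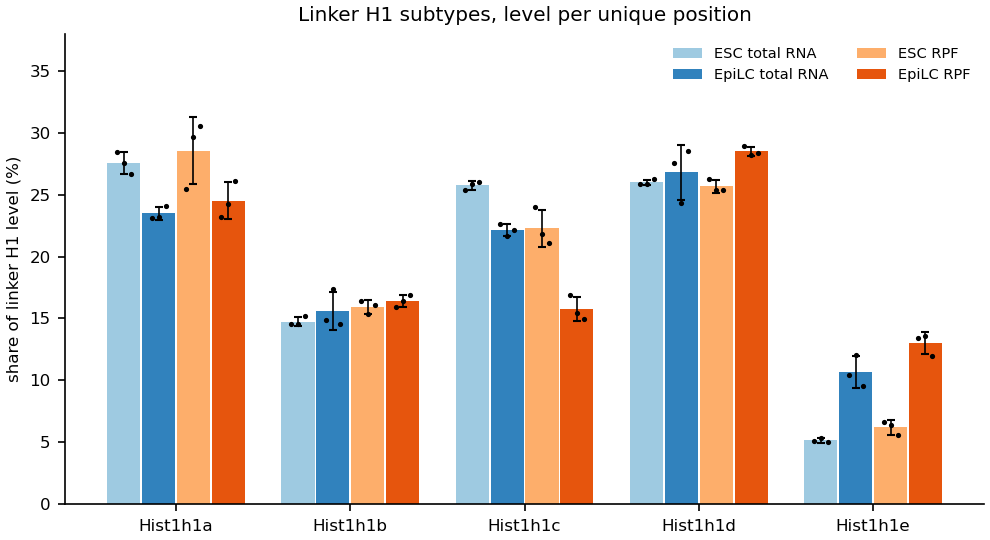
Share of the summed linker H1 level (vertical axis, percent, from level per unique position) taken by the 5 main somatic H1 genes in each group of libraries. Bars are means, error bars are the SD of 3 libraries and dots are libraries. The share of Hist1h1e in EpiLC RPF, 12.998%, is above its 6.21% in ESC RPF, and that of Hist1h1c is lower in EpiLCs.

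Of the replacement variants, H2afy, which encodes macroH2A, a large H2A variant of silent chromatin, was the only one called. It had 195, 182 and 205 CPM in ESC total RNA and 76.4, 63.1 and 67.6 CPM in EpiLC total RNA. Its RPFs had 328, 287 and 339 CPM in ESCs and 148, 118 and 151 CPM in EpiLCs. Every EpiLC library was below every ESC library. The fitted log2 change came to -1.47 ± 0.09 in mRNA (limma adjusted p 2.64e-13) and -1.18 ± 0.09 in RPF (limma adjusted p 5.2e-11), and both calls held in all 22 alternative settings. H2afy2, which encodes the other macroH2A, had -0.15 ± 0.09 in mRNA (limma adjusted p 0.161) and 0.20 ± 0.09 in RPF (limma adjusted p 0.0645).

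H2afj, an H2A variant close to canonical H2A, had -0.71 ± 0.15 in mRNA (limma adjusted p 2.16e-04), within the fold limit, and -1.15 with the GC correction. H3f3b, a gene for the replacement H3 of active chromatin, had 0.27 ± 0.06 in mRNA (limma adjusted p 6.71e-04) and 0.44 ± 0.08 in RPF (limma adjusted p 3.25e-05). H2afx, whose product is phosphorylated at DNA breaks, had -0.18 ± 0.22 in mRNA (limma adjusted p 0.49) and -0.07 ± 0.18 in RPF (limma adjusted p 0.757). With the GC correction these values of H2afx were -0.67 and -0.71, with limma adjusted p of 7.95e-05 and 4.98e-06. H2afv, an H2A.Z gene, had -0.12 ± 0.08 in mRNA (limma adjusted p 0.212). For H3f3a, the other replacement H3 gene, and H2afz, the other H2A.Z gene, 3.55% and 0% of positions were estimated to be unique at 28 nt. H3f3a had 70 to 175 counts in total RNA, with -0.04 ± 0.17 in mRNA (limma adjusted p 0.862), and at most 3 counts in RPF, too few to read a change. H2afz had 17 to 49 counts in RPF, with 0.27 ± 0.31 in RPF (limma adjusted p 0.467), and at most 15 counts in total RNA.

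Most histone genes had more footprints for their total RNA than the median gene tested. The length of the coding sequence was not taken into account. The log2 ratio of RPF to total RNA, which is relative to other genes of the same libraries, had a median of 0.72 over the core genes in ESCs, 1.05 over linker H1 and 0.75 over the replacement variants. It was -0.02 over all genes tested. In EpiLCs the medians were 0.60, 0.92 and 1.07, and -0.01 over all genes. With the GC correction the core median was 0.51 in ESCs and 0.28 in EpiLCs. In each cell type 23 of 63 histone genes were called higher in RPF than in total RNA (36.5%), beside 7.93% of all genes in ESCs and 9.39% in EpiLCs. In ESCs 5 were called lower (7.94%, beside 13.5% of all genes) and in EpiLCs 8 (12.7%, beside 14.4%). With the same correction 14 were called higher in ESCs and 10 in EpiLCs, beside 7.33% and 8.43% of all genes.

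The 8 tested linker H1 genes all lay above 0 at the adjusted p without the fold limit in both cell types, beside 33.0% of all genes in ESCs and 31.3% in EpiLCs. In ESCs the log2 ratio was 1.87 ± 0.13 (SE) for H1f0, 1.76 ± 0.14 for H1fx, 1.19 ± 0.09 for Hist1h1e and 1.02 ± 0.05 for Hist1h1a, and it was lowest for Hist1h1c, at 0.68 ± 0.06. In EpiLCs the ratio of Hist1h1c was 0.29 ± 0.07, and with the GC correction it was 0.08 (limma adjusted p 0.307). Of core genes, the 6 with at least 50% unique positions, a group chosen after the values were seen, had ratios of 0.72 to 2.21 in ESCs and 0.79 to 2.01 in EpiLCs. The highest of them were Hist2h4 and Hist4h4, at 2.21 ± 0.09 and 1.76 ± 0.09 in ESCs. H2afx had 2.20 ± 0.19, the highest of the replacement variants with at least 5% unique positions.

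Core genes with fewer unique positions spread more widely, from -3.17 to 2.76 in ESCs. Hist1h2af had the highest ratio, 2.76 ± 0.10, and Hist2h3b the lowest, -3.17 ± 0.39, followed by Hist1h2ad at -2.37 ± 0.27 and Hist1h2bc at -2.15 ± 0.15. Over the 47 core genes the ratio in ESCs and the share of unique positions had Pearson's r of 0.371 and Spearman's rho of 0.363, across genes that share libraries and sequence. RPFs (26 to 32 nt) were shorter than total RNA reads (32 to 50 nt), so that fewer of their positions are unique. Divided by the unique positions of each assay (28 nt for RPF and 36 nt for total RNA), the median ratio of the core genes was 0.89 in ESCs and 0.93 in EpiLCs, and that of linker H1 was 1.08 and 0.97.

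**Figure D5:**
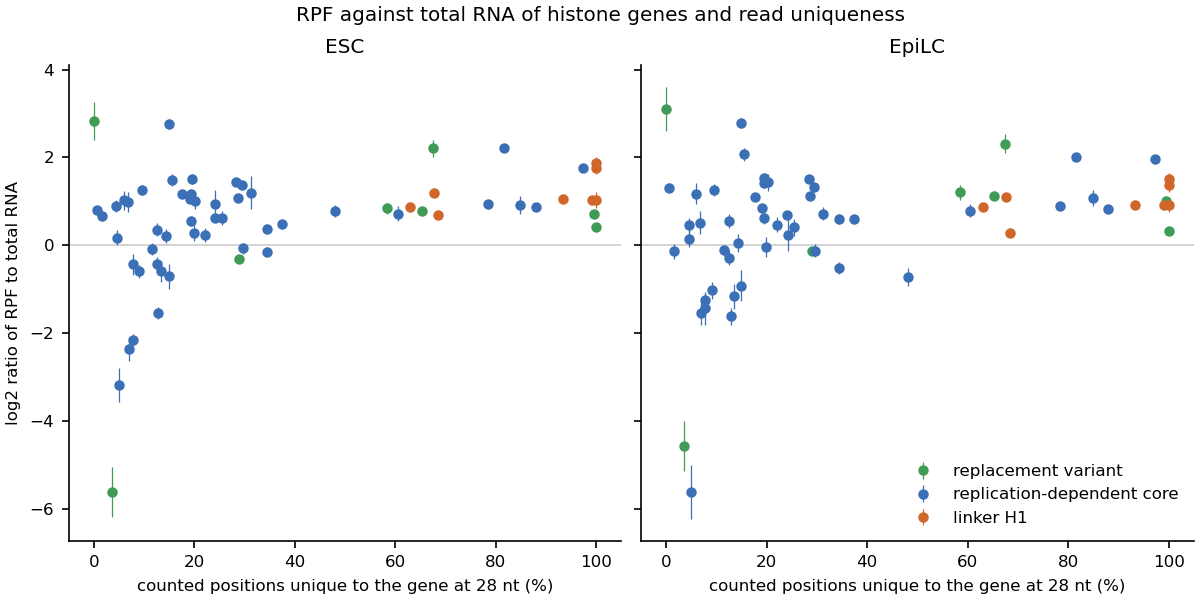
Log2 ratio of RPF to total RNA (vertical axis) against the share of counted positions unique at 28 nt (horizontal axis, percent) in ESCs (left) and EpiLCs (right). Points are the 63 histone genes tested, coloured by class, with bars of 1 SE. Linker H1 genes lie above 0 at 63.0% or more unique positions, and core genes under 20% run from -3.17 to 2.76 in ESCs.

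Hist1h2bc, an H2B gene with no hairpin within the searched bases, was the other core gene whose assays differed at the adjusted p. Its total RNA had 83.5, 84.0 and 74.1 CPM in ESCs and 68.8, 79.0 and 62.1 CPM in EpiLCs, and its RPFs had 16.2, 17.9 and 19.7 CPM in ESCs and 23.2, 24.3 and 39.6 CPM in EpiLCs. The RPF values did not overlap and EpiLC RPF replicate 3 was the highest. The TE change was 0.92 ± 0.22 (limma adjusted p 0.0339), within the fold limit, and 7.74% of its positions were unique at 28 nt.

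Grouped by the hairpin, the 35 tested genes that have it had a median log2 fold change of 0.08 for mRNA and 0.00 for RPF, with 3 genes called higher and none lower in either assay (8.57% and 0%, beside 14.6% and 9.70% of all genes for mRNA and 15.4% and 10.6% for RPF). The 13 tested genes that have at least 40 annotated bases after the stop codon and no hairpin had medians of -0.12 and 0.20, with H2afy called lower in both assays. Of these, 7 are replacement variants, 3 linker H1 and 3 core genes, so class and hairpin cannot be told apart.

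Promoter windows of RefSeq were matched for 74 of the 80 genes. TATAAA was found on either strand in 31 of 54 core promoters (57.4%), 4 of 10 linker H1 and 1 of 10 replacement promoters, beside 13.6% of 32817 promoters of the same length. CCAAT was found in 45 core (83.3%), 7 linker H1 and 9 replacement promoters, beside 37.4%. ATTTGCAT, the octamer known from H2B promoters, was found in 13 core promoters (24.1%), 0 linker H1 and 1 replacement promoter, beside 1.74%. The window of Hist3h2ba, the gene with the largest rise, is shown with TATAAA and CCAAT in capitals (GRCm38.p6, chr11:58948661-58948960, + strand).
Hist3h2ba promoter: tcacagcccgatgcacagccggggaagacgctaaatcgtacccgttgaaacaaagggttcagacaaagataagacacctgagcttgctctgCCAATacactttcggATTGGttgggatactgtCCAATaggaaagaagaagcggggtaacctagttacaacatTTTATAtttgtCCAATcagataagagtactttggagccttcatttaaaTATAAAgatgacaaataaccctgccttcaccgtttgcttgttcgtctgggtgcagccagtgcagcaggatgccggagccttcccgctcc
The pair of Hist1h2aa and Hist1h2ba, shown above, holds both motifs and ATTTGCAT in its shared stretch.

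Genes that supply histones (transcription, processing of the stem-loop mRNA, chaperones and S phase genes) are given for comparison. Of 53 genes of this list that were tested, none was called higher and 1 was called lower for mRNA, beside 14.6% and 9.70% of all genes. The counts were the same for RPF, beside 15.4% and 10.6%. The median log2 fold change was -0.03 for mRNA and -0.04 for RPF. Without the fold limit, 11 were higher and 18 lower for mRNA (54.7%, beside 65.4% of all genes). The gene called lower was Asf1b, a chaperone of H3 and H4 linked to dividing cells. It had 20.2, 18.7 and 19.1 CPM in ESC and 10.1, 8.65 and 8.02 CPM in EpiLC total RNA, without overlap, which is -1.08 ± 0.18 on the log2 scale in mRNA (limma adjusted p 8.12e-06) and -0.991, not called, without EpiLC total RNA replicate 3. In RPF the change was -1.01 ± 0.15 (limma adjusted p 4.04e-06), close to the fold limit, and was not called in 9 of 22 alternative settings, among them those without replicate 3 of ESC RPF (-0.898), replicate 2 (-0.995) or replicate 3 (-0.861) of EpiLC RPF.

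Slbp, which binds the stem-loop, had 153 ± 2.497 CPM in ESC and 142 ± 5.22 CPM in EpiLC total RNA (SD, n = 3) and -0.11 ± 0.06 on the log2 scale in mRNA (limma adjusted p 0.135). Npat, the activator of replication-dependent histone genes, had 155 ± 2.21 and 171 ± 19.2 CPM and 0.12 ± 0.07 (limma adjusted p 0.156). Their RPF changes were -0.05 ± 0.07 (limma adjusted p 0.533) and 0.00 ± 0.11 (limma adjusted p 0.977). None of the 53 genes was called for TE, beside 0.255% of all genes tested in either direction.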

How the data were processed

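The authors deposited raw counts per gene for 12 libraries (TruSeq Ribosome Profiling kit, mm10). Per the labels and methods, reads were trimmed with cutadapt 1.14, mapped with STAR 2.5.3a, kept where they mapped to a single place, and counted by their 5′ end on the sense strand with featureCounts 1.5.3 over coding sequence without its first 45 nt (Gencode M14). Treatment of PCR duplicates is not given in the sources used here. From 22462 genes, 11750 passed 3 CPM in 3 libraries. TMM scaling (edgeR 4.0.16), voom and limma 3.58.1 in R 4.3.3 were used in a single fit of 4 groups without a block, with Benjamini-Hochberg adjustment over all genes tested. Calls needed an adjusted p below 0.05 and an absolute log2 fold change above 1. At these depths 3 counts equal 0.2 to 1.14 CPM, for counting error only. GC content, hairpins and unique positions were read from Gencode M21 transcripts on GRCm38, with no genome, so copies outside transcripts were not seen and shares of unique positions are estimates (H2afz has counts at a share of 0%). Members and lists were chosen with earlier results of these data known. Genes named are all tested linker H1 and replacement genes, the 2 core genes a family with the highest mean CPM, further called members, and Slbp, Npat and called genes of the supply list (53 of 55 symbols matched). Hist1h2bc, Hist2h4, Hist1h2af and Hist1h2ad were named after their values were seen. The fit was tested on simulated data. Alternatives included other tools, scaling, filters, GC correction and left-out libraries.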

Additional observations from a re-analysis of the deposited data

Results flagged for a closer look

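The cell types differed in the 2 assays by unequal amounts, by the interaction of assay and cell type, in 3 of 63 histone genes. This is at the adjusted p without the fold limit, which 1.20% of all genes passed in either direction. The TE change was -1.49 ± 0.25 (limma adjusted p 0.0022) for Hist1h2ba, -0.40 ± 0.09 (limma adjusted p 0.0371) for Hist1h1c and 0.92 ± 0.22 (limma adjusted p 0.0339) for Hist1h2bc. The last gene had 7.74% unique positions at 28 nt, against 48.1% for Hist1h2ba and 68.5% for Hist1h1c. For Hist1h1c the adjusted p was as high as 0.144 over the alternative settings.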

How the results depend on the processing

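Of 103 values of single genes, 75 kept their call and direction in all 22 alternative settings, 19 lost a call, 8 gained one and 1 reversed: the RPF change of H1fx, -0.16 with the GC correction and -0.15 when a replicate block was added. A value that kept its call could still move within the fold limit. The RPF change of Hist1h3a ran from -0.95 to -0.11, and that of Hist1h4f from 0.02 to 0.46. Of 791 alternative values of counts, medians and sums, 716 stayed close to the reported ones. Limits are the few unique positions of core genes, their high GC content and low counts. Causes of the shifts below were not tested, apart from those that the alternative's own construction gives. For counts below without a share, the reported fit called 9.70% of all genes lower for mRNA and 10.6% for RPF. It called 14.4% lower for the EpiLC ratio and 0.255% for TE in either direction.
Without the fold limit, 13 of 63 histone genes were higher in mRNA and 7 lower, beside 34.6% and 30.7% of all genes. In RPF 16 were higher and 12 lower, and in TE 1 and 2, beside 59.8% and 1.20% of all genes in either direction. For RPF against total RNA in ESCs 45 were higher and 10 lower, beside 3872 and 4058 of all 11750 genes. In EpiLCs 41 were higher, beside 31.3% of all genes. Of the 53 supply genes 11 were higher and 18 lower in mRNA, and 9 and 16 in RPF, beside the same shares of all genes.
With the GC correction, with or without the replicate block, 2 genes were lower for mRNA and 7 for RPF. In both settings 14 were higher in RPF than in total RNA in ESCs. In EpiLCs 10 were higher without and 11 with the block. With the correction and no block, 10.7% of all genes were lower for RPF. In the ratio 7.33% of all genes were higher in ESCs and 8.43% in EpiLCs. Core medians were -0.29 and -0.29 for mRNA, -0.41 and -0.41 for RPF, 0.51 and 0.50 for the ESC ratio and 0.28 and 0.26 for the EpiLC ratio. The ratios of linker H1 were 0.90 and 0.90 in ESCs and 0.73 and 0.73 in EpiLCs, and those of the replacement variants were 0.56 and 0.56, and 0.82 and 0.83.
Per unique position, with total RNA at 36 nt, the core ratio was 0.89 in ESCs and 0.93 in EpiLCs. At 50 nt, chosen after seeing the data, it was 1.20 and 1.24, and that of linker H1 was 1.13 and 1.05. Without members under 5% unique positions, also chosen after seeing the data, 2 genes were lower for RPF and the replacement median was -0.14. That median was -0.0075 with DESeq2. The replacement ratio in ESCs was 0.68 with library totals, and 2 genes were lower for mRNA without a filter. The summed H1 difference without its top member was -0.0302 in total RNA and -0.14 in RPFs. Supply genes lower were 2 for mRNA with DESeq2, and 0 for RPF with edgeR, DESeq2 or library totals.
With the replicate block, 2 genes were lower for TE, beside 0.451% of all genes called in either direction. With it 0 supply genes were lower for RPF. The study describes the total RNA as matched to the RPFs, but the sources used here do not say that a number marks a shared culture. Deviations of same-numbered libraries correlated by -0.17 to 0.12, which does not settle it.
Leaving out a library gave 0 to 3 supply genes lower for RPF and 0 to 2 for mRNA, 5 to 9 histone genes lower for the EpiLC ratio (5 without EpiLC RPF replicate 3), 0 to 1 higher and 1 to 2 lower for TE (1 higher without ESC RPF replicate 3 or EpiLC RPF replicate 1), and replacement medians of -0.13 to 0.20 for RPF, 0.17 to 0.38 for TE and 0.71 to 0.80 for the ESC ratio.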
